A study of Mus musculus with 12 samples.

Results

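Livers of I-BET151-treated STAM mice were compared with livers of healthy mice to describe which genes were still expressed away from the healthy level under treatment. The comparison used 8 of the 12 mice of the series, 4 STAM mice given I-BET151 and 4 healthy mice, and 16823 genes had enough counts to be tested. STAM mice were male C57BL/6 mice that received a single streptozotocin injection at day 2 after birth, which damages the insulin-producing beta cells, and were placed on a high-fat diet from week 4. The treated mice were dosed orally each day from week 6 with I-BET151 at 10 mg/kg, and livers were taken at week 9. The healthy mice were labelled WT and received vehicle only, also from week 6, and their livers were taken at week 9 too. The comparison thus combines streptozotocin, diet and drug against none of them, and these parts cannot be told apart. A further 4 STAM mice dosed with vehicle, taken at the same age, are set beside the results. The study's vehicle control was methylcellulose, whereas I-BET151 was suspended in hydroxypropyl methylcellulose with Tween 80, a further difference that goes with the drug. All 4 treated mice are used here, although the study's methods, which list 4 mice for each group, left 1 unnamed I-BET151 sample out of the analysis for low gene counts.

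I-BET151 is an inhibitor of the bromodomain and extra-terminal (BET) proteins, which bind acetylated histones at promoters and enhancers and recruit the elongation factor P-TEFb. The STAM model passes through fatty liver and steatohepatitis towards fibrosis and liver tumours on a background of insulin deficiency. A healthy hepatocyte makes and desaturates fatty acids under insulin, synthesises cholesterol under SREBP2, converts cholesterol into bile acids and carries a large set of cytochrome P450 enzymes, part of it set by the male pattern of growth hormone release.

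The libraries held between 34711229 and 53365596 gene counts. I-BET151 mouse 3 stood apart in composition: its 10 most counted genes took 7.95% of counts against 13.5% to 18% in the other 11 mice, mitochondrial genes took 2.71% against 4.51% to 7.3%, and its TMM scaling factor was 1.61 against 0.77 to 1.11. The counts over all genes and over each gene list are therefore given with and without this mouse. The summed level of 8 hepatocyte markers was 103989 to 123897 CPM (counts scaled to the effective library size) in healthy mice, 50543 to 71604 CPM in vehicle-dosed STAM mice and 19488 to 83743 CPM in I-BET151 mice, the lowest being mouse 3. The liver identity of every sample was thus present, but healthy and I-BET151 mice did not overlap in this sum, and its part in the differences below was not tested. In whole tissue, fewer cells of a type and less RNA per cell cannot be told apart.

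In the I-BET151 mice 1662 genes were higher and 884 lower than in healthy mice, together 2546 of 16823 tested genes, or 15.1% (9.88% higher and 5.25% lower; edgeR quasi-likelihood test, Benjamini-Hochberg adjusted p of at most 0.05). Of these 2546 genes, 2125 showed no overlap between the groups (over all tested genes, 10.9% lay above and 8.85% below the healthy range in every I-BET151 mouse), and 304 were at least 4-fold higher and 39 at least 4-fold lower. Without I-BET151 mouse 3, 3464 of 16967 genes passed, or 20.4% (10.9% higher and 9.53% lower). All 2546 genes kept their direction in that fit and 2309 of them passed again, while the share of higher calls went from 65.3% to 53.3%. The median log2 fold change over all tested genes was 0.06 with all mice and -0.01 without mouse 3. Set beside this, vehicle-dosed STAM mice differed from the same healthy mice at 1195 genes (7.1%) with all mice in the fit, and at 3779 genes (22.3%) when I-BET151 mouse 3 was left out, which is more than the 3464 of the treated mice in that fit. I-BET151 mice differed from vehicle-dosed mice at 26 genes (0.155%, with 0.0416% higher and 0.113% lower, and 0.884% in all without mouse 3). Those comparisons share mice with the one described here, and a smaller count in one does not show a smaller effect.

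The size of this list depended on single libraries and on the sequencing lane. Leaving out healthy mouse 2, 3 or 4 gave 1329, 1292 and 1377 genes, and the lower calls alone numbered 1353, 1617 and 571 without I-BET151 mouse 2, 3 or 4. Adding lane as a covariate left 85 genes (67 higher and 18 lower). Only lanes 2 and 5 held both a healthy and an I-BET151 mouse. Of the 117 genes that passed among those named by the rule in the methods, 99 did not pass with that covariate, and the 18 that did were Rbm24, Cyp2b13, Areg, Adra2a, Lrtm2, Psrc1, Raet1d, Cyp26a1, Slco1a4, Cidea, Tm7sf2, Nr0b2, Gpc1, Gstp3, Asns, H19, Ly6d and Hist1h4h. Within those 2 lanes 2497 of the 2546 genes had the fitted direction in both, and none had it in neither. The mice of those lanes also entered the fit that made the calls. This agreement was therefore largely set beforehand and does not measure the part of lane. Of all named calls, 24 were lost when 1 mouse was left out (adjusted p = 0.0501 to 0.13), among them Atp5mpl, Aurka, Bdh1, Ccl2, Ccl4, Cfb, Cish, Cmpk2, Decr1, Elovl3, F11, Gstm3, Hal, Hist1h4d, Hlf, Lgr5, Mcm2, Nr1d1, Oas2, Pcna, Sds, Serpinc1 and Tlr2.

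**Figure D1:**
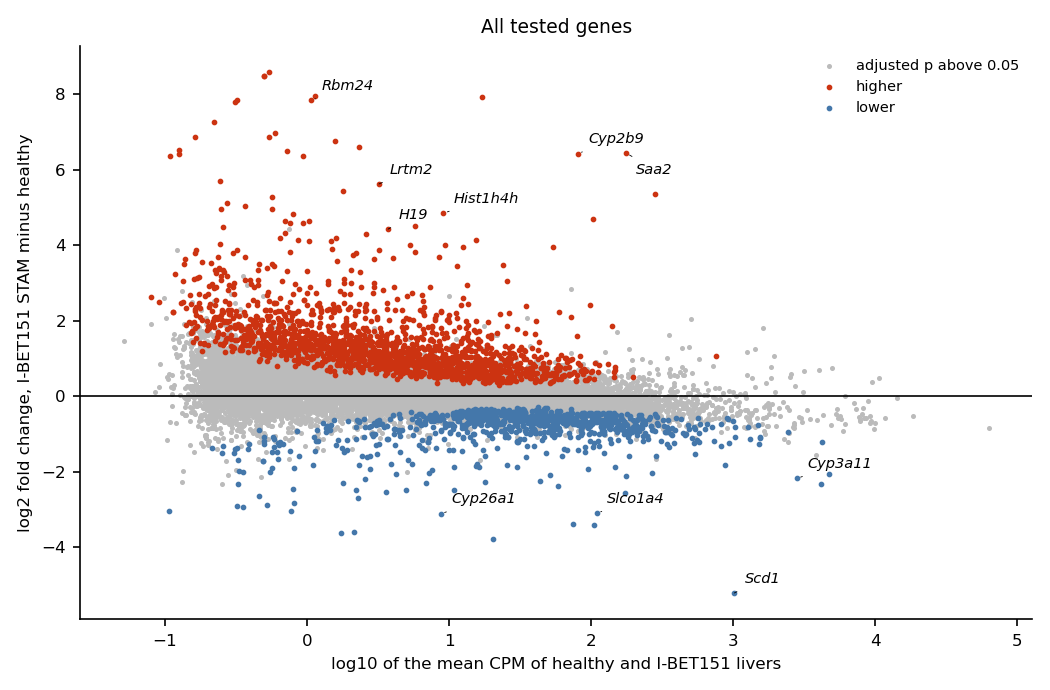
Each point is 1 of the 16823 tested genes, with log10 of its mean CPM in healthy and I-BET151 livers on the x axis and the log2 fold change of I-BET151 over healthy on the y axis. Coloured points passed an adjusted p of 0.05, and the 1662 higher calls outnumber the 884 lower ones.

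The genes with the largest differences were ranked by log2 fold change among genes whose groups did not overlap. Their separation from healthy was therefore set by the rule. Those higher under treatment were mostly silent or nearly silent in healthy liver, which such a ranking favours. Cyp2b9 (ENSMUSG00000040660, chromosome 7 of GRCm38 from 26173411 to 26210661), a female-biased cytochrome P450, measured 0.447, 6.68, 0.0581 and 0.201 CPM in the healthy mice and 137, 162, 239 and 96.9 CPM in the I-BET151 mice. No I-BET151 mouse fell to the healthy range, although healthy mouse 2 carried most of the healthy signal (log2 fold change 6.42 ± 1.17 SE, adjusted p = 0.00386; log2 fold change 9.29 without that mouse). Its neighbour in sequence Cyp2b13 gave 0, 0.053, 0.0581 and 0 CPM in the healthy mice and 3.06, 3.25, 4.41 and 1.75 CPM in the I-BET151 mice (log2 fold change 6.75 ± 0.95 SE, adjusted p = 0.000853). Reads shared between such near-identical genes were not counted, so the levels of each are uncertain.

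Rbm24, an RNA-binding protein of muscle splicing, had 1 count over the 4 healthy mice and 407 over the 4 I-BET151 mice, a ratio of 333 at equal depth (95% exact interval 59.4 to 13190, counting error only; adjusted p = 0.000208). Areg, which encodes the EGF receptor ligand amphiregulin, had 2 counts against 282, a ratio of 115 (31.6 to 957; adjusted p = 0.00131). Both genes were near 0 in every healthy mouse and counted in every I-BET151 mouse. Adra2a, an adrenergic receptor, had 3 counts against 329 (ratio 89.7, interval 30.4 to 437; adjusted p = 0.000249), and Sprr2a2, a small proline-rich epithelial protein of a multi-copy family, had 1 against 221 (ratio 181, interval 32.1 to 7175; adjusted p = 0.00038). Vmn2r3, listed as a vomeronasal receptor, had 0 counts in healthy mice and 213 in I-BET151 mice, at least 58.1-fold higher when 3 counts over the healthy group are taken as the limit (adjusted p = 0.00587). With so few healthy counts, these genes reached the count filter only through the STAM groups, and a lower call was not possible.

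Lrtm2, a leucine-rich repeat membrane protein, measured 0.0851, 0.053, 0.145 and 0.23 CPM in the healthy mice and 4.07, 7.17, 5.11 and 8.8 CPM in the I-BET151 mice (log2 fold change 5.62 ± 0.37 SE, adjusted p = 6.15e-06). Psrc1, a spindle-associated protein, gave 0.0638, 0.0795, 0.145 and 0.0288 CPM in the healthy mice and 3.91, 1.2, 4.45 and 4.34 CPM in the I-BET151 mice (log2 fold change 5.43 ± 0.55 SE, adjusted p = 0.000115). Both were separated from healthy by a wide gap in every mouse. Igdcc4, a neural-type immunoglobulin superfamily protein, and Prtn3, the myeloid granule protease proteinase 3, were also higher, but with a wide spread. Igdcc4 measured 0.0638, 0.106, 0.233 and 0.172 CPM in the healthy mice and 32.4, 3.28, 2.64 and 97.3 CPM in the I-BET151 mice (log2 fold change 7.91, adjusted p = 0.00456), and Prtn3 measured 0.0851, 0, 0.0291 and 0.0575 CPM in the healthy mice and 7.76, 0.422, 0.233 and 10.1 CPM in the I-BET151 mice (log2 fold change 6.6, adjusted p = 0.0081). In both genes mice 1 and 4 were far above mice 2 and 3. Without mouse 4 the log2 fold changes were 6.5 for Igdcc4 and 5.88 for Prtn3, and without healthy mouse 1 that of Prtn3 was 7.24.

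The gene furthest below the healthy level was Scd1 (ENSMUSG00000037071, chromosome 19 of GRCm38 from 44394455 to 44407879), which encodes stearoyl-CoA desaturase, the enzyme that makes oleate and palmitoleate. It measured 1735, 1842, 2109 and 2255 CPM in the healthy mice and 54.4, 39.6, 14.1 and 105 CPM in the I-BET151 mice (log2 fold change -5.22 ± 0.62 SE, adjusted p = 0.000302). The highest I-BET151 mouse stood far under the lowest healthy mouse, and vehicle-dosed mice averaged 145 ± 88.5 CPM (SD, n = 4). Scd3, a paralogue with shared sequence, was lower as well (log2 fold change -3.04, adjusted p = 0.0033). Raet1d, a ligand of the NKG2D receptor, measured 39.8, 44.2, 31 and 36.7 CPM in the healthy mice and 1.95, 4.64, 1.52 and 3.1 CPM in the I-BET151 mice (log2 fold change -3.78 ± 0.31 SE, adjusted p = 2.12e-05), with 4.13 ± 1.18 CPM in vehicle-dosed mice.

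The rest of the lower end held carriers, enzymes and genes of other kinds. Slco1a4, an organic anion and bile acid carrier, measured 189.8, 211, 181 and 205 CPM in the healthy mice and 14.7, 34.4, 14.2 and 28.2 CPM in the I-BET151 mice (log2 fold change -3.11 ± 0.27 SE, adjusted p = 3.34e-05). Slco1a1, the male-biased member of the same family, gave 71.5, 161, 185 and 131 CPM in the healthy mice and 11, 18.6, 14.5 and 8.57 CPM in the I-BET151 mice (log2 fold change -3.38, adjusted p = 0.00136). Each was separated from healthy in all 4 treated mice, as the rule that chose them required. Cyp26a1, the retinoic acid hydroxylase, measured 16.3, 16.2, 11.4 and 18.7 CPM in the healthy mice and 1.96, 1.84, 1.77 and 1.61 CPM in the I-BET151 mice (log2 fold change -3.12 ± 0.32 SE, adjusted p = 0.000115). Ugt2b1, a glucuronosyltransferase, averaged 296 ± 116 CPM in healthy mice, 136 ± 47.8 in vehicle-dosed mice and 49.7 ± 32.2 in I-BET151 mice (log2 fold change -2.58, adjusted p = 0.00293). The male-biased steroid dehydrogenase Hsd3b5 (log2 fold change -3.6, adjusted p = 0.00966), the major urinary protein Mup21 (log2 fold change -3.41, adjusted p = 0.00967, and -2.81 without healthy mouse 3), the citrate and succinate carrier Slc13a2 (log2 fold change -2.71, adjusted p = 0.00432), the adhesion receptor Adgrf1 (log2 fold change -2.84, adjusted p = 0.000944) and the antisense transcript Hectd2os (log2 fold change -3.63, adjusted p = 0.000593) completed the 12 largest. By the rule that chose them, the genes of both ends passed without mouse 3 as well and did not overlap between the groups.

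**Figure D2:**
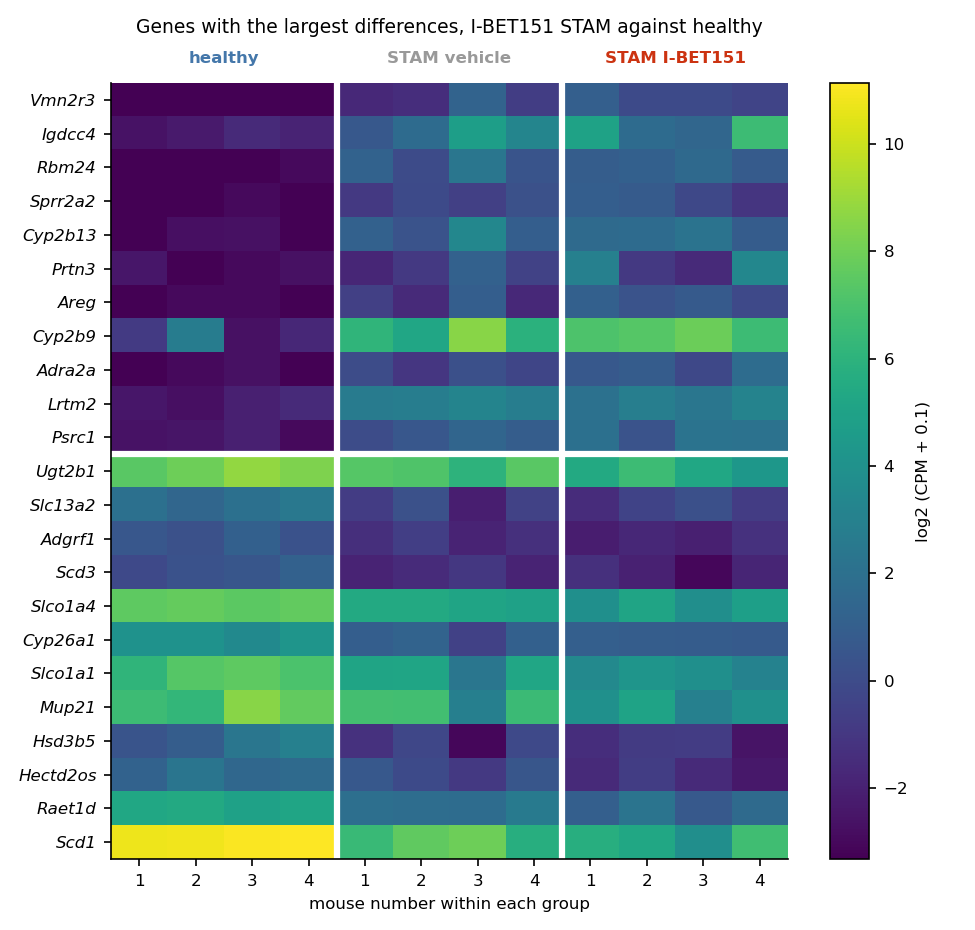
Map of the level in each mouse, as log2(CPM + 0.1) by colour, for genes among the 12 furthest above healthy (upper block) and the 12 furthest below (lower block), with 4 healthy, 4 vehicle-dosed STAM and 4 I-BET151-dosed STAM mice in columns. Most of the upper genes are dark, at or near 0 counts, in the healthy columns, but Cyp2b9 was clearly counted in healthy mouse 2. Scd1 is brightest in the healthy columns. For most genes the vehicle columns resemble the I-BET151 columns more than the healthy ones by eye.

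Counts for 27 gene lists are read against the background of 9.88% higher and 5.25% lower. They describe the members and carry no test of the list. Where a count of 5 or more moved by over 1.5 times when 1 mouse was left out, the values are given beside it, and many of the smaller counts moved in this way too. With lane as a covariate few members of any list passed, at most 2 in 1 direction.

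**Figure D3:**
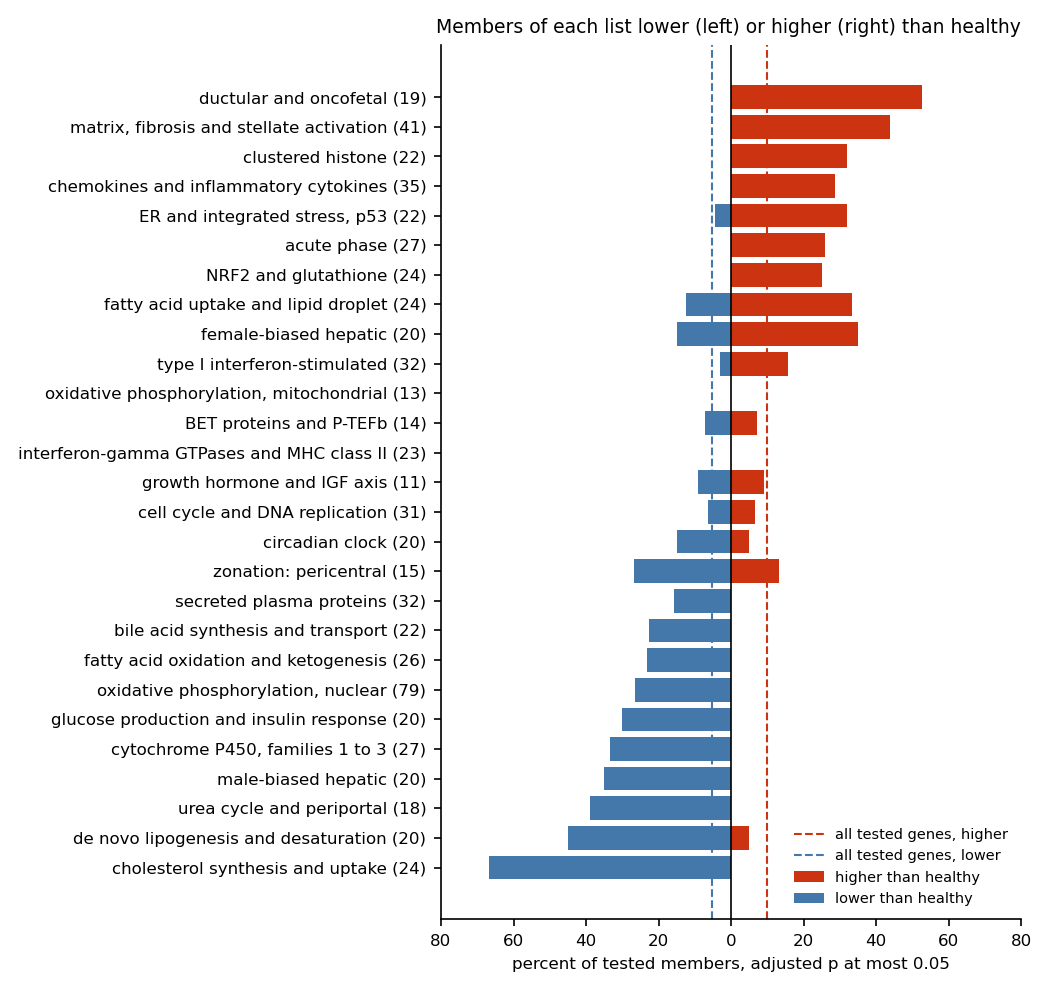
Share of tested members of each gene list that were higher (right) or lower (left) in I-BET151 than in healthy mice, in percent, with the background shares over all genes as lines. Cholesterol synthesis and uptake extends furthest to the lower side (66.7%), and ductular and oncofetal genes furthest to the higher side (52.6%).

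In de novo lipogenesis and desaturation, 9 of 20 genes were lower and 1 was higher (11 and 1 without mouse 3), with a median log2 fold change of -0.55 against -0.14 for vehicle over healthy. Elovl5, the elongase of polyunsaturated fatty acids, measured 822, 897, 857 and 657 CPM in the healthy mice and 346, 311, 158 and 299.5 CPM in the I-BET151 mice (log2 fold change -1.54 ± 0.25 SE, adjusted p = 0.002). Fads1, the delta-5 desaturase, averaged 322 ± 36.8 CPM in healthy and 142 ± 24.7 CPM in I-BET151 mice (log2 fold change -1.18, adjusted p = 0.000833). Elovl6, which elongates palmitate, measured 31.8, 56.9, 38.5 and 44.1 CPM in the healthy mice and 20.7, 22.3, 18.9 and 11.2 CPM in the I-BET151 mice (log2 fold change -1.23, adjusted p = 0.00331), while vehicle-dosed mice averaged 38.5 ± 5.88 CPM, close to the healthy 42.8 ± 10.7 CPM. The difference of I-BET151 from vehicle at Elovl6 did not pass (log2 fold change -1.07, adjusted p = 0.0768). Scd2, the desaturase that dominates outside liver, was the single higher member (log2 fold change 0.74, adjusted p = 0.0165).

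Fatty acid oxidation and ketogenesis had 6 lower of 26 genes, with none higher at adjusted p (0 at unadjusted p under 0.05, and 0 by DESeq2). The lower count depended on single mice, with 1, 1 and 2 without healthy mouse 2, 3 or 4, and 17, 12 and 2 without I-BET151 mouse 2, 3 or 4. It was 0 on the 8 compared mice alone and 15 by DESeq2. Ppara, the nuclear receptor that drives this programme, averaged 161 ± 28.6 CPM in healthy, 108 ± 2.02 in vehicle-dosed and 95 ± 20 in I-BET151 mice (log2 fold change -0.76, adjusted p = 0.0115). Bdh1, which interconverts the ketone bodies, gave log2 fold change -0.86, adjusted p = 0.029, and Decr1, which handles unsaturated acyl chains, gave log2 fold change -0.78, adjusted p = 0.0185. Lipid uptake and droplet genes were higher in 8 of 24, with 3 lower (8 and 5 without mouse 3, and 5 higher without healthy mouse 2). Cd36, the fatty acid translocase, measured 51.3, 71.5, 63.7 and 55.5 CPM in the healthy mice and 248, 273, 79.9 and 277 CPM in the I-BET151 mice (log2 fold change 1.86 ± 0.31 SE, adjusted p = 0.0022). Its lowest I-BET151 value came from mouse 3, and without it the difference was log2 fold change 2.12, adjusted p = 4.41e-06. Mogat1, a monoacylglycerol acyltransferase, measured 0.766, 1.06, 0.61 and 0.575 CPM in the healthy mice and 2.43, 4.64, 2.22 and 2.78 CPM in the I-BET151 mice (log2 fold change 1.99, adjusted p = 0.00151), and the lipid droplet protein Cidea measured 0.0638, 0.053, 0.0872 and 0.115 CPM in the healthy mice and 0.594, 1.45, 0.52 and 0.758 CPM in the I-BET151 mice (log2 fold change 3.33, adjusted p = 0.00399). Fabp4, the fatty acid carrier of fat cells and macrophages, averaged 11.2 ± 2.7, 26.8 ± 9.31 and 58.9 ± 35 CPM in healthy, vehicle-dosed and I-BET151 mice (log2 fold change 2.39, adjusted p = 0.00246), and the summed level of the 2 tested adipocyte markers, Fabp4 and Cfd, was 9.34 to 15.2 CPM in healthy and 23.4 to 92.7 CPM in I-BET151 mice. The part of adipose cells in these genes was not tested.

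Cholesterol synthesis and uptake had the largest share of lower genes among the 27 lists, 16 of 24 and 18 without mouse 3, at a median log2 fold change of -0.88. No member was higher at adjusted p, none at unadjusted p under 0.05 and none by DESeq2. In vehicle-dosed mice the median difference from healthy was 0.04, with 1 gene higher and 1 lower.

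Nsdhl (ENSMUSG00000031349, chromosome X of GRCm38 from 72918557 to 72958514), a dehydrogenase late in the pathway, measured 15.6, 14.8, 16.1 and 15.9 CPM in the healthy mice and 7.76, 8.68, 8.32 and 6.04 CPM in the I-BET151 mice with no overlap (log2 fold change -1.02 ± 0.17 SE, adjusted p = 0.00216). Vehicle-dosed mice had 13.5, 14.3, 15.3 and 22.5 CPM, all above the I-BET151 mice, and I-BET151 differed from vehicle (log2 fold change -1.09, adjusted p = 0.0258). Sqle, squalene epoxidase, averaged 21.4 ± 2.98, 27.1 ± 10.6 and 8.83 ± 2.59 CPM in healthy, vehicle-dosed and I-BET151 mice (log2 fold change -1.28, adjusted p = 0.00817). Msmo1, a methylsterol oxidase, averaged 57.6 ± 5.73, 85.2 ± 25.6 and 29.1 ± 9.6 CPM (log2 fold change -0.98, adjusted p = 0.0165). Idi1, the isopentenyl diphosphate isomerase, measured 19.5, 27.9, 22.3 and 27.8 CPM in the healthy mice and 7.76, 8.65, 8.28 and 2.44 CPM in the I-BET151 mice (log2 fold change -1.84, adjusted p = 0.00402), with mouse 4 the lowest. Vehicle-dosed mice averaged 23.4 ± 8.98 CPM for Idi1, and the difference of vehicle from healthy did not pass at any of the 3 enzymes (adjusted p = 0.48, 0.181 and 0.938 for Sqle, Msmo1 and Idi1). Tm7sf2, a sterol reductase, was low in vehicle-dosed mice too (82.6 ± 10.6, 29.4 ± 6.19 and 19.5 ± 6.66 CPM; log2 fold change -2.08, adjusted p = 0.000208). Mvd, the mevalonate decarboxylase, averaged 4.37 ± 0.721 CPM in healthy and 4.32 ± 1.22 CPM in I-BET151 mice (log2 fold change -0.01, adjusted p = 0.971, 95% interval -0.49 to 0.46), while vehicle-dosed mice averaged 10.7 ± 2.45 CPM.

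Sterol response elements, bound by SREBP2, control several of these genes. The letters TCACNCCAC on either strand were present in the 250 bases before the start of 1.22% of 27025 RefSeq promoters of GRCm38.p6 and of 1 of the 16 tested genes of the list with a promoter in that table, Hmgcs1, an early synthase of the pathway (log2 fold change -1.04, adjusted p = 0.00903). The 150 bases nearest its start are shown because it is the only match, with the match in capitals at 137 bases before the start (Hmgcs1 at chr13:119690201-119690350 on the plus strand).
Hmgcs1: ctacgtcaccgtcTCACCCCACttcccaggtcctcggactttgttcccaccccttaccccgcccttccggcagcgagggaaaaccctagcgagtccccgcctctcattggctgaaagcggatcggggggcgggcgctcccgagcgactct
Such letters are a description and not a mapped site.

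Bile acid synthesis and transport held 5 lower of 22 genes (7 without mouse 3), which were Slco1a1 and Slco1a4 above, Nr0b2, Akr1d1 and Cyp8b1. Nr0b2, the receptor SHP that represses bile acid synthesis, measured 51.4, 33.8, 56.2 and 46.9 CPM in the healthy mice and 22.3, 6.48, 12.3 and 10.2 CPM in the I-BET151 mice (log2 fold change -1.87 ± 0.32 SE, adjusted p = 0.00276). Akr1d1, the bile acid intermediate reductase, measured 145, 169.6, 145 and 199 CPM in the healthy mice and 70.8, 119, 53.9 and 82.1 CPM in the I-BET151 mice (log2 fold change -1.02, adjusted p = 0.0104), with 176 ± 32.8 CPM in vehicle-dosed mice. Cyp8b1, the 12-alpha-hydroxylase that sets the cholic acid share, gave log2 fold change -1.19, adjusted p = 0.0338. Glucose production and insulin response had 6 lower of 20, and 9 lower and 1 higher without mouse 3. Ppargc1a, the coactivator of gluconeogenesis and mitochondrial genes, measured 15.7, 23, 32.2 and 29.6 CPM in the healthy mice and 7.33, 10.3, 7.39 and 12.5 CPM in the I-BET151 mice (log2 fold change -1.42, adjusted p = 0.00468). It averaged 26.7 ± 9.15 CPM in vehicle-dosed mice, so this gene left the healthy range in the treated group. Pck1, the gluconeogenic carboxykinase, averaged 5912 ± 943, 3612 ± 856 and 2553 ± 784 CPM in healthy, vehicle-dosed and I-BET151 mice (log2 fold change -1.21, adjusted p = 0.0142). Irs1, the insulin receptor substrate (log2 fold change -0.97, adjusted p = 0.0013), and Gys2, liver glycogen synthase (log2 fold change -0.82, adjusted p = 0.00873), were also lower.

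Sex-biased liver genes differed in both directions. Of 20 male-biased genes 7 were lower (6 without I-BET151 mouse 3, and 3 and 4 without healthy mouse 3 or 4), at a median log2 fold change of -1 (-0.6 for vehicle over healthy), and of 20 female-biased genes 7 were higher and 3 lower (8 and 2 without I-BET151 mouse 3, and 4 higher without healthy mouse 3). The sex of the healthy mice was not stated where that of the STAM mice was, and a part of sex in these lists was not tested. Elovl3, a male-biased elongase, measured 66.4, 62.6, 178 and 82.7 CPM in the healthy mice and 15, 32.7, 13 and 14.7 CPM in the I-BET151 mice (log2 fold change -2.38, adjusted p = 0.0148). Gpc1, a heparan sulphate proteoglycan, measured 8.07, 6.07, 9.65 and 6.99 CPM in the healthy mice and 30.3, 36, 23.2 and 29.6 CPM in the I-BET151 mice (log2 fold change 1.95 ± 0.2 SE, adjusted p = 0.000123), and Sult2a1, a steroid sulphotransferase with close paralogues, averaged 0.0364 ± 0.0284 and 0.563 ± 0.313 CPM (log2 fold change 3.78, adjusted p = 0.00549). In the growth hormone axis 1 of 11 genes was higher and 1 lower (0 and 2 without mouse 3). Ghr, its receptor, was lower (log2 fold change -0.93, adjusted p = 0.01), and Cish, a feedback inhibitor of the receptor, was higher with overlapping groups (log2 fold change 1.45, adjusted p = 0.0439; adjusted p = 0.0691 without I-BET151 mouse 3, and log2 fold change 2.15 without healthy mouse 2). Igfals (log2 fold change -0.75, adjusted p = 0.0539) and Socs2 (log2 fold change 1.63, adjusted p = 0.0797) did not pass.

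Of 27 tested genes of a cytochrome P450 list 9 were lower and none higher at adjusted p (0 at unadjusted p under 0.05, and 0 by DESeq2). Without I-BET151 mouse 3 there were 13 lower and 1 higher, without healthy mouse 2 there were 5 lower, and DESeq2 gave 14 lower. Cyp3a11, the main drug-oxidising enzyme of mouse liver, measured 3745, 4078, 5225 and 5335 CPM in the healthy mice and 826, 2044, 426 and 753 CPM in the I-BET151 mice (log2 fold change -2.18 ± 0.4 SE, adjusted p = 0.00376). Vehicle-dosed mice were at a like low level (1066, 815, 828 and 738 CPM), and I-BET151 mouse 2 was the highest of the treated mice (log2 fold change -2.78 without it). Cyp2c29 averaged 426 ± 65.8, 146 ± 27.1 and 143 ± 50 CPM in healthy, vehicle-dosed and I-BET151 mice (log2 fold change -1.58, adjusted p = 0.0022), and Cyp2c40, a member of the same subfamily, averaged 26.9 ± 10.4, 9.2 ± 2.43 and 8.86 ± 3.16 CPM (log2 fold change -1.6, adjusted p = 0.00413).

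Among zonated genes, 7 of 18 genes of the urea cycle and periportal amino acid use were lower, and 8 without I-BET151 mouse 3. The count was 2 to 4 when any 1 healthy mouse was left out, 4 without vehicle mouse 1, 2 or 4, 2 and 14 without I-BET151 mouse 1 or 2, 1 on the 8 compared mice alone and 11 by DESeq2. Gls2, liver glutaminase (log2 fold change -1.19, adjusted p = 0.00602), Hal, histidine ammonia-lyase (log2 fold change -1.17, adjusted p = 0.0193), and Sds, serine dehydratase (log2 fold change -1.08, adjusted p = 0.0291), were among them. Of 15 pericentral genes 4 were lower and 2 higher, with and without mouse 3, and the list's median changed sign between settings. Oat, ornithine aminotransferase, measured 1302, 1399, 1538 and 1235 CPM in the healthy mice and 286, 632, 249.7 and 372 CPM in the I-BET151 mice (log2 fold change -1.83 ± 0.28 SE, adjusted p = 0.00131). Cyp1a2 (log2 fold change -1.15, adjusted p = 0.0118) and the Wnt-pathway receptor Lgr5 (log2 fold change -0.86, adjusted p = 0.0195) were lower, while the glutathione transferase Gstm3 was higher (log2 fold change 1.07, adjusted p = 0.0237).

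Part of the oxidant and stress response genes were above the healthy level. Of 24 NRF2 and glutathione genes 6 were higher, and 9 without mouse 3, and of 22 genes of endoplasmic reticulum stress, the integrated stress response and p53, 7 were higher and 1 lower (10 and 1 without mouse 3). Gstp3, a glutathione transferase, measured 7.15, 6.99, 6.08 and 7.13 CPM in the healthy mice and 28.7, 22.1, 14.7 and 26.4 CPM in the I-BET151 mice (log2 fold change 1.75 ± 0.18 SE, adjusted p = 0.00013). Vehicle-dosed mice lay between at 10.9 ± 1.12 CPM, and I-BET151 exceeded vehicle (log2 fold change 1.08, adjusted p = 0.0366). The carbonyl reductase Cbr3 averaged 0.648 ± 0.0872, 5.7 ± 4.36 and 3.24 ± 1.04 CPM (log2 fold change 2.31, adjusted p = 0.00602), sulfiredoxin (Srxn1) 43.7 ± 3.66, 102 ± 25.3 and 87.3 ± 20.5 CPM (log2 fold change 1, adjusted p = 0.00611), and the cystine carrier subunit Slc7a11 0.246 ± 0.12, 1.58 ± 0.507 and 0.876 ± 0.271 CPM (log2 fold change 1.81, adjusted p = 0.00898). Asns, asparagine synthetase and a target of ATF4, measured 2.34, 1.85, 5.03 and 2.65 CPM in the healthy mice and 12.1, 13.7, 8.55 and 18.4 CPM in the I-BET151 mice (log2 fold change 2.15 ± 0.32 SE, adjusted p = 0.00109). Phlda3, a p53 target, measured 1.02, 0.583, 0.581 and 0.719 CPM in the healthy mice and 4.13, 2.68, 3.12 and 5.88 CPM in the I-BET151 mice (log2 fold change 2.43, adjusted p = 0.00038). Each treated mouse was above each healthy mouse for both. Atf3, a stress-induced transcription factor (log2 fold change 2.26, adjusted p = 0.00171), and Trib3, a pseudokinase of the same response (log2 fold change 1.32, adjusted p = 0.00177), were higher too.

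Of 32 type I interferon-stimulated genes 5 were higher than in healthy mice (15.6%, against 9.88% of all genes) and 1 was lower, with 12 and 4 at unadjusted p under 0.05 and 8 and 3 by DESeq2. The median log2 fold change was 0.26. Without I-BET151 mouse 3, the highest of the treated mice in the summed level of the list, the median was 0.06, with 5 higher and 3 lower, and the higher genes numbered 3 without healthy mouse 3 or 4 and 9 without I-BET151 mouse 2. In vehicle-dosed mice 21 of the same 32 were above healthy, at a median of 1.1, and in I-BET151 mice 5 were below vehicle. The higher genes were the oligoadenylate synthetases Oas1a, Oas1g, Oas2 and Oas3, sensors of double-stranded RNA, and Ifi27l2a. Oas3 measured 0.809, 1.17, 0.669 and 0.776 CPM in the healthy mice and 2.61, 1.96, 4.57 and 2.27 CPM in the I-BET151 mice (log2 fold change 1.74 ± 0.3 SE, adjusted p = 0.0028), against 4.13, 4.27, 6.81 and 6.13 CPM in vehicle-dosed mice. Oas1a averaged 2.01 ± 0.484, 10.1 ± 1.58 and 5.28 ± 2.09 CPM (log2 fold change 1.4, adjusted p = 0.00502). For Oas2 mouse 3 was the highest and the groups overlapped (log2 fold change 1.81, adjusted p = 0.02). Without mouse 3 its difference was log2 fold change 0.93, adjusted p = 0.0212.

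Isg15, the ubiquitin-like interferon-stimulated protein, measured 3.96, 5.06, 3.17 and 4.77 CPM in the healthy mice and 5.39, 3.95, 4.63 and 4.23 CPM in the I-BET151 mice. The groups overlapped, with I-BET151 mouse 1 just above the healthy range (log2 fold change 0.1, adjusted p = 0.736, 95% interval -0.31 to 0.51). Vehicle-dosed mice had 8.53, 7.85, 11.5 and 11.6 CPM. Usp18, the protease that removes it, averaged 11.3 ± 2.01, 32 ± 3.32 and 14.6 ± 2.79 CPM (log2 fold change 0.37, adjusted p = 0.132, 95% interval 0.02 to 0.71). Ifit1, a sensor of viral RNA ends, averaged 9.07 ± 2.47, 16.1 ± 3.16 and 5.82 ± 1.26 CPM (log2 fold change -0.64, adjusted p = 0.0568, 95% interval -1.1 to -0.19), and the radical SAM enzyme Rsad2 14.6 ± 2.43, 23.1 ± 2.62 and 11.5 ± 0.332 CPM (log2 fold change -0.34, adjusted p = 0.0938). All 4 were lower in I-BET151 than in vehicle-dosed mice (adjusted p = 0.0186, 0.0186, 0.0193 and 0.0375 for Rsad2, Usp18, Ifit1 and Isg15). Cmpk2, a nucleotide kinase, was the lower gene (log2 fold change -0.6, adjusted p = 0.0345).

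Of 23 interferon-gamma GTPases and MHC class II genes none passed by edgeR, with 3 at unadjusted p under 0.05 and 1 by DESeq2. Tgtp1, an immunity-related GTPase, averaged 7.75 ± 0.0949, 12.6 ± 1.79 and 6.5 ± 0.835 CPM (log2 fold change -0.25, adjusted p = 0.222). Gbp3, a guanylate-binding protein, averaged 5.75 ± 2.21, 15.1 ± 3.04 and 6.55 ± 2.3 CPM (log2 fold change 0.19, adjusted p = 0.652, and log2 fold change -0.03, adjusted p = 0.953 without mouse 3). Irgm1 (log2 fold change -0.23, adjusted p = 0.239), Gbp2 (log2 fold change -0.45, adjusted p = 0.197), Gbp5 (log2 fold change 0.46, adjusted p = 0.183), Gbp8 (log2 fold change 0.94, adjusted p = 0.0582) and the class II transactivator Ciita (log2 fold change 0.7, adjusted p = 0.139) did not pass. Tgtp2 did not pass with all mice (log2 fold change -0.42, adjusted p = 0.152) and was lower without mouse 3 (log2 fold change -0.59, adjusted p = 0.0311). Ifng itself had too few counts to be tested, with 7, 0, 1 and 0 counts in healthy, 1, 1, 3 and 3 in vehicle-dosed and 5, 2, 0 and 1 in I-BET151 mice.

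The interferon-stimulated response element is the site of the factor ISGF3. The letters TTCNNTTTC on either strand occurred in the 250 bases before the start of 8.18% of all promoters and of 12 of 22 tested genes of the list (54.5%), 3 of the 3 higher genes with a promoter in the table and 9 of the 18 that did not pass. Oas1a and Oas3 are shown from the higher genes, and Isg15 and Ifit1 from those that did not pass, although Ifit1 averaged below healthy. Matches in the 150 bases nearest the start are in capitals. Matches can overlap, and the windows are Oas1a at chr5:120907526-120907675 on the minus strand, Oas3 at chr5:120777660-120777809 on the minus strand, Isg15 at chr4:156200819-156200968 on the minus strand and Ifit1 at chr19:34640739-34640888 on the plus strand.
Oas1a: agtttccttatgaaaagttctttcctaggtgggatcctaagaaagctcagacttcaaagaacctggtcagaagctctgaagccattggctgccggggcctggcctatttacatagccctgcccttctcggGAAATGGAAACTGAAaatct
Oas3: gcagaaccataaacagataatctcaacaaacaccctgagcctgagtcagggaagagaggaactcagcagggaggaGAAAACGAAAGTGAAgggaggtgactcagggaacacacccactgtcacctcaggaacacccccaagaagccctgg
Isg15: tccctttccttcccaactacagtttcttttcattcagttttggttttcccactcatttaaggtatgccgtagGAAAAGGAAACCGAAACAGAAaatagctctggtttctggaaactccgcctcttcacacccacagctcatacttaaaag
Ifit1: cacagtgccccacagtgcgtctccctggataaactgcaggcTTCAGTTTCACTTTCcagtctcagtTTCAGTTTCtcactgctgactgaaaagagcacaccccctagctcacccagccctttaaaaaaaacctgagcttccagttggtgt
Genes that passed as higher and genes that did not pass both carried the letters, which are a description and not a mapped site.

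Chemokines and inflammatory cytokines were higher in 10 of 35 genes, none lower at adjusted p (0 at unadjusted p under 0.05, and 0 by DESeq2). Without I-BET151 mouse 3 there were 12 higher and 1 lower. Without healthy mouse 2, 3 or 4 the higher genes numbered 3, 4 and 6, on the 8 compared mice alone 5, and by DESeq2 16. With at least 10 counts in every mouse, 24 were tested, 5 were higher and 0 lower. The median log2 fold change was then 0.38, against 0.89 in the main fit. Cxcl14, a chemokine of epithelia, measured 0.851, 0.503, 1.19 and 0.891 CPM in the healthy mice and 7.96, 1.84, 1.49 and 12.7 CPM in the I-BET151 mice (log2 fold change 2.81, adjusted p = 0.00864, and 2.13 without mouse 4), against 1.89 ± 0.529 CPM in vehicle-dosed mice. Cxcl2, a neutrophil chemoattractant (log2 fold change 3.09, adjusted p = 0.00468), Ccl4 (log2 fold change 1.87, adjusted p = 0.0149) and the bacterial lipoprotein receptor Tlr2 (log2 fold change 1.13, adjusted p = 0.0145) were higher. Ccl2, the monocyte chemoattractant, measured 0.447, 0.159, 0.262 and 0.0575 CPM in the healthy mice and 1.28, 0.572, 1.2 and 0.62 CPM in the I-BET151 mice (log2 fold change 1.95, adjusted p = 0.016). Tnf measured 0.404, 0.0795, 0 and 0.201 CPM in the healthy mice and 0.775, 0.271, 1 and 0.299 CPM in the I-BET151 mice and did not pass (log2 fold change 1.72, adjusted p = 0.0931, 95% interval 0.29 to 3.16).

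Of 27 acute phase genes 7 were higher, and 12 without mouse 3. Saa2, serum amyloid A, measured 3.53, 2.15, 5.29 and 5.03 CPM in the healthy mice and 131, 20, 4.03 and 1237 CPM in the I-BET151 mice (log2 fold change 6.45 ± 1.38 SE, adjusted p = 0.00883), so mice 1 and 4 carried most of the difference and the groups overlapped. Without mouse 4 the log2 fold change was 3.69 for Saa2, 3.27 for Lcn2 and 2.33 for Orm3, all still past the threshold. Lcn2, the iron-siderophore binding lipocalin, measured 10.3, 6.57, 5.96 and 7.85 CPM in the healthy mice and 171, 40.6, 12.1 and 566 CPM in the I-BET151 mice (log2 fold change 4.68, adjusted p = 0.00722). Orm3, an orosomucoid, averaged 5.5 ± 2.12, 43.5 ± 5.24 and 45.6 ± 36 CPM (log2 fold change 3.05, adjusted p = 0.00107), and Socs3, the feedback inhibitor of IL-6 signalling, averaged 10.5 ± 0.991, 15.7 ± 4.72 and 24.1 ± 8.72 CPM (log2 fold change 1.2, adjusted p = 0.00902). The difference between I-BET151 and vehicle did not pass at any of these genes.

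Part of the macrophage markers were higher, and no T cell marker passed. Of 13 markers of recruited or lipid-associated macrophages 6 were higher (Gpnmb, Trem2, Cd68, Cx3cr1, Fabp5 and Lgals3), with a summed level of 87.6 to 129.7 CPM in healthy, 137 to 256 in vehicle-dosed and 139.9 to 247 in I-BET151 mice. Of 8 Kupffer cell markers Marco (log2 fold change 2.21, adjusted p = 0.0137) and Clec4f (log2 fold change 0.6, adjusted p = 0.0466) were higher, and 5 passed without mouse 3. None of 18 T or NK cell markers passed by edgeR (2 at unadjusted p under 0.05), and their summed level was 7.56 to 15.2 CPM in healthy, 14.1 to 20.1 in vehicle-dosed and 7.03 to 10.2 in I-BET151 mice. Among 9 B or plasma cell markers none passed (0 at unadjusted p under 0.05), and none of 5 neutrophil markers passed with all mice (3 at unadjusted p under 0.05) but 3 did without mouse 3. Of 10 endothelial markers Vwf and Stab1 passed as higher, with 7 fold changes above healthy and 3 below. Of 7 cholangiocyte markers Krt7 and Cldn4 passed as higher, with 4 fold changes above healthy and 3 below. The 1 tested acinar marker, Cela2a, was higher. Alas2 of 6 erythroid markers was lower, while the other 5 lay above healthy without passing (list median log2 fold change 0.7). Over all tested genes 9.88% were higher and 5.25% lower. Stellate markers were mixed, 4 of 10 higher and 2 lower. The part of these cells in the inflammatory and matrix lists was not tested.

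Matrix and stellate activation genes were above healthy in 18 of 41 (43.9%), in 17 without I-BET151 mouse 3, in 10 and 11 without healthy mouse 2 or 3, and in 11 on the 8 compared mice alone, at a median log2 fold change of 0.76 (0.67 for vehicle over healthy). None was lower at adjusted p, at unadjusted p under 0.05 or by DESeq2. Mmp12, the macrophage elastase, measured 0.532, 0.503, 0.291 and 0.403 CPM in the healthy mice and 9.64, 3.07, 5.61 and 3.47 CPM in the I-BET151 mice (log2 fold change 3.64 ± 0.46 SE, adjusted p = 0.000461). Col1a1, the main fibrillar collagen, measured 9.21, 5.3, 6.57 and 5.52 CPM in the healthy mice and 15.1, 11.3, 29.2 and 14.4 CPM in the I-BET151 mice (log2 fold change 1.4, adjusted p = 0.00648), and Timp1, an inhibitor of matrix proteases, measured 0.106, 0, 0.0291 and 0.0288 CPM in the healthy mice and 0.45, 0.211, 0.681 and 0.551 CPM in the I-BET151 mice (log2 fold change 3.35, adjusted p = 0.00391, and log2 fold change 4.49 without healthy mouse 1). In each of these genes the treated and healthy groups did not overlap, and vehicle-dosed mice averaged 6.29 ± 3.55, 14.7 ± 3.02 and 0.527 ± 0.198 CPM. Col5a2 (log2 fold change 1.68, adjusted p = 0.000796), Col4a2 of the basement membrane (log2 fold change 1.09, adjusted p = 0.00182) and the collagen cross-linking oxidase Loxl2 (log2 fold change 1.34, adjusted p = 0.00206) were higher. Tgfb1, the main fibrogenic cytokine, did not pass (9.24 ± 3.07 and 10.6 ± 1.89 CPM; log2 fold change 0.2, adjusted p = 0.569, 95% interval -0.29 to 0.68).

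Ductular and oncofetal genes, some of them expressed in fetal liver and liver tumours, were higher in 10 of 19 (52.6%), with and without I-BET151 mouse 3. The count was 6, 5 and 5 without healthy mouse 1, 2 or 3 and 5 without I-BET151 mouse 1. H19, an imprinted fetal RNA, measured 0.255, 0.397, 0.378 and 0.288 CPM in the healthy mice and 6.85, 11.1, 2.31 and 8.25 CPM in the I-BET151 mice (log2 fold change 4.43 ± 0.46 SE, adjusted p = 0.000123). Ly6d, a surface protein of epithelial progenitors, measured 1.28, 1.8, 2.18 and 1.44 CPM in the healthy mice and 36.6, 27.8, 14 and 39 CPM in the I-BET151 mice (log2 fold change 4.14 ± 0.46 SE, adjusted p = 0.000208). Vehicle-dosed mice were at 11.9 ± 3.65 CPM for H19 and 42.3 ± 28.9 CPM for Ly6d, so both stood far from healthy with and without the drug. Igf2bp3, a fetal RNA-binding protein (log2 fold change 2.48, adjusted p = 0.000853), and Afp, alpha-fetoprotein (log2 fold change 1.31, adjusted p = 0.00149), were higher, also by similar amounts in vehicle-dosed mice (log2 fold changes 2.5 and 1.3).

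**Figure D4:**
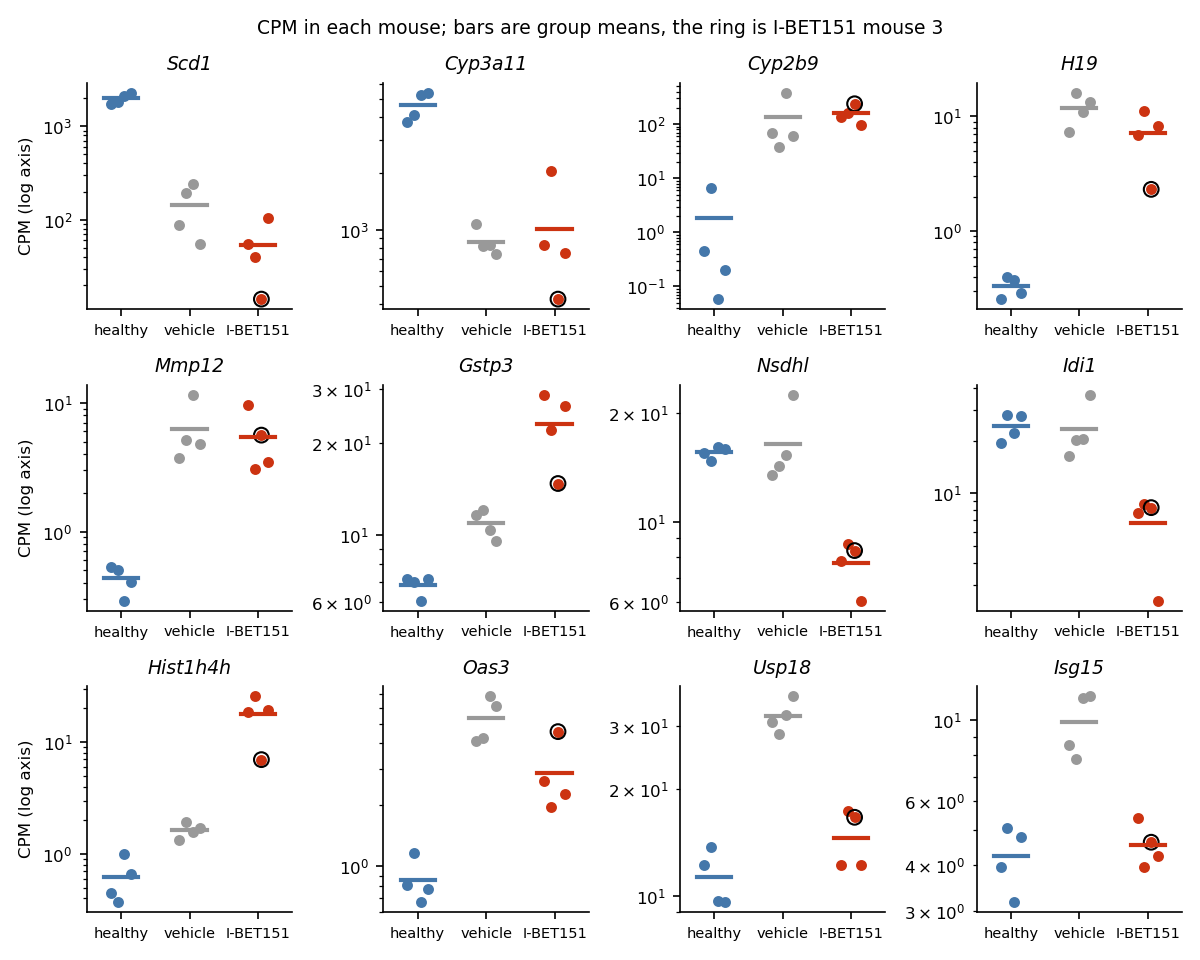
Level of 12 genes in each mouse (points, CPM on a log axis whose range differs between panels) in healthy, vehicle-dosed STAM and I-BET151-dosed STAM livers, with group means as bars and I-BET151 mouse 3 ringed. In Scd1, Cyp3a11, Cyp2b9, H19 and Mmp12 no mouse of either STAM group enters the healthy range, in Nsdhl the I-BET151 mice lie below every mouse of the other groups, and in Isg15 the I-BET151 mice overlap it.

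Clustered histone genes were higher in 7 of 22 tested genes (7 higher and 1 lower without mouse 3), at a median log2 fold change of 0.83 (0.32 for vehicle over healthy), and 43 of the 65 listed genes had too few counts in these libraries of polyadenylated RNA. Members near 0 in healthy mice could reach the count filter through the STAM groups alone. With at least 10 counts in every mouse, 10 were tested, 1 was higher and 0 lower, at a median of 0.43. The summed level of the list was 128 to 163 CPM in healthy and 108 to 253 CPM in I-BET151 mice. The histone H4 gene Hist1h4h (ENSMUSG00000060981, chromosome 13 of GRCm38 from 23531050 to 23531519) measured 0.447, 0.371, 0.988 and 0.661 CPM in the healthy mice and 18.4, 25.6, 6.96 and 19.5 CPM in the I-BET151 mice, and vehicle-dosed mice had 1.32, 1.94, 1.57 and 1.72 CPM. Every treated mouse lay above every other mouse (log2 fold change 4.85 ± 0.4 SE, adjusted p = 2.12e-05), and I-BET151 exceeded vehicle (log2 fold change 3.42, adjusted p = 0.00409). Hist1h4m measured 0.0638, 0.0265, 0.116 and 0.0863 CPM in the healthy mice and 0.793, 0.904, 0.95 and 0.735 CPM in the I-BET151 mice (log2 fold change 3.5, adjusted p = 0.000247), Hist1h4k averaged 0.141 ± 0.0401 and 1.18 ± 0.386 CPM (log2 fold change 3.04, adjusted p = 0.000578), Hist1h4j averaged 0.0881 ± 0.0661 and 1.04 ± 0.378 CPM (log2 fold change 3.5, adjusted p = 0.000954), and Hist1h4d averaged 0.0573 ± 0.0534 and 0.267 ± 0.0435 CPM (log2 fold change 2.25, adjusted p = 0.0177, and 2.85 without healthy mouse 3). These genes encode the same protein from near-identical copies, and how reads were split among them is uncertain. Of 31 cell cycle and replication genes 3 were higher and 3 lower without mouse 3. With all mice 2 were higher, E2f1 (log2 fold change 1.02, adjusted p = 0.0028) and Mcm2 (log2 fold change 0.96, adjusted p = 0.0227), and 2 lower, Aurka (log2 fold change -0.81, adjusted p = 0.0254) and Pcna (log2 fold change -0.49, adjusted p = 0.0421).

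The TATA letters TATAAA on either strand were present in the 250 bases before the start of 14.3% of all promoters, of 11 of 19 tested histone genes (57.9%) and of 4 of the 7 higher ones. Hist1h4h, Hist1h4j and Hist1h2be were the higher genes without a match. The 150 bases nearest the start of 4 higher H4 genes are shown to compare them, with matches in capitals: Hist1h4d at chr13:23581418-23581567 on the plus strand, Hist1h4k at chr13:21750554-21750703 on the minus strand, Hist1h4m at chr13:21811596-21811745 on the plus strand and Hist1h4h at chr13:23530894-23531043 on the plus strand, the last with no match to these letters.
Hist1h4d: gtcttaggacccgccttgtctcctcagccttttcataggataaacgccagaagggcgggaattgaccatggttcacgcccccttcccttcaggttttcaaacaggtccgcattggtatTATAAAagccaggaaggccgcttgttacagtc
Hist1h4k: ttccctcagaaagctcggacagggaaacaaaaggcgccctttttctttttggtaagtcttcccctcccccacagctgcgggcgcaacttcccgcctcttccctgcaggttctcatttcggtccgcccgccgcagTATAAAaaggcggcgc
Hist1h4m: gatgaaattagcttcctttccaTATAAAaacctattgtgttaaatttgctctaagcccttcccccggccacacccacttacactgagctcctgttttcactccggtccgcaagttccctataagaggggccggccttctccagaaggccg
Hist1h4h: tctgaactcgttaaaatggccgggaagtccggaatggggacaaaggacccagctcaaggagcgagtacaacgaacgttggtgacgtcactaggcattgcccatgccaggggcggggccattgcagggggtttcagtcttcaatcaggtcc
Higher genes with and without the letters were both present. The printed matches begin at -32 in Hist1h4d, -16 in Hist1h4k and -128 in Hist1h4m, counted from the start. The letters were counted wherever they fell in the 250 bases, and they are not a mapped TATA box.

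Among 14 genes of BET proteins and P-TEFb, 1 was higher and 1 lower (1 and 5 without mouse 3). Myc, a transcription factor known to respond to BET inhibition, was higher (7.1 ± 1.77, 16 ± 2.16 and 20.1 ± 5.08 CPM in healthy, vehicle-dosed and I-BET151 mice; log2 fold change 1.5 ± 0.2 SE, adjusted p = 0.00068). Hexim1, the inhibitor of P-TEFb, was lower (54.7 ± 3.2, 40 ± 3.8 and 32.3 ± 4.3 CPM; log2 fold change -0.76, adjusted p = 0.00177). Both were already displaced in the same direction in vehicle-dosed mice (log2 fold change 1.17, adjusted p = 0.0041 for Myc, and log2 fold change -0.45, adjusted p = 0.0388 for Hexim1). Ccnt1, the cyclin of P-TEFb, did not pass with all mice (log2 fold change -0.46, adjusted p = 0.0658) and did without mouse 3 (log2 fold change -0.64, adjusted p = 0.00424). Of 20 clock genes 1 was higher and 3 lower, with and without mouse 3. Arntl2 was higher (1.13, 0.874, 0.727 and 0.805 CPM in the healthy mice and 3.17, 2.89, 8.07 and 3.24 CPM in the I-BET151 mice; log2 fold change 2.29, adjusted p = 0.00107), and the clock activator Clock (log2 fold change -0.74, adjusted p = 0.00851), the repressor Nr1d1 (log2 fold change -0.75, adjusted p = 0.0224) and the output factor Hlf (log2 fold change -0.57, adjusted p = 0.0294) were lower. In Arntl2, Clock and Nr1d1 mouse 3 lay apart from the other treated mice, and the time of day at collection was not given.

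Nuclear genes of oxidative phosphorylation were lower in 21 of 79, at a median log2 fold change of -0.5. The count depended on single mice, with 11, 7, 5 and 3 without healthy mouse 1, 2, 3 or 4, and 11, 56, 40 and 10 without I-BET151 mouse 1, 2, 3 or 4. On the 8 compared mice alone 2 were lower. No member was higher at adjusted p (1 at unadjusted p under 0.05, and 1 by DESeq2). Ndufb5, a complex I subunit, averaged 58.6 ± 4.24, 42.7 ± 4.94 and 34 ± 7.29 CPM (log2 fold change -0.79, adjusted p = 0.00548), and Ndufb8 (log2 fold change -0.73, adjusted p = 0.0125) and the ATP synthase subunits Atp5e (log2 fold change -0.65, adjusted p = 0.0109) and Atp5mpl (log2 fold change -0.69, adjusted p = 0.0165) were lower. None of 13 mitochondrially encoded genes passed, at adjusted p, at unadjusted p under 0.05 or by DESeq2. The one with the smallest p, mt-Cytb, gave log2 fold change -0.72, adjusted p = 0.25 (95% interval -1.63 to 0.18). Of 32 secreted plasma protein genes 5 were lower, and 8 lower and 2 higher without I-BET151 mouse 3. The lower genes numbered 1 without healthy mouse 2, 3 or 4, 3 or fewer without any 1 of the other mice except I-BET151 mice 2 and 3, and 0 on the 8 compared mice alone. Among them were Proc, protein C (log2 fold change -0.64, adjusted p = 0.0122), Serpinc1, antithrombin (log2 fold change -0.77, adjusted p = 0.0441), factor B, Cfb (log2 fold change -0.63, adjusted p = 0.0352), and coagulation factor XI, F11 (log2 fold change -0.86, adjusted p = 0.0476). The hepatocyte markers summed above share Alb, Apoa1, Ttr and Trf with the plasma protein list. The part of hepatocyte content in these lists was not tested.

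**Figure D5:**
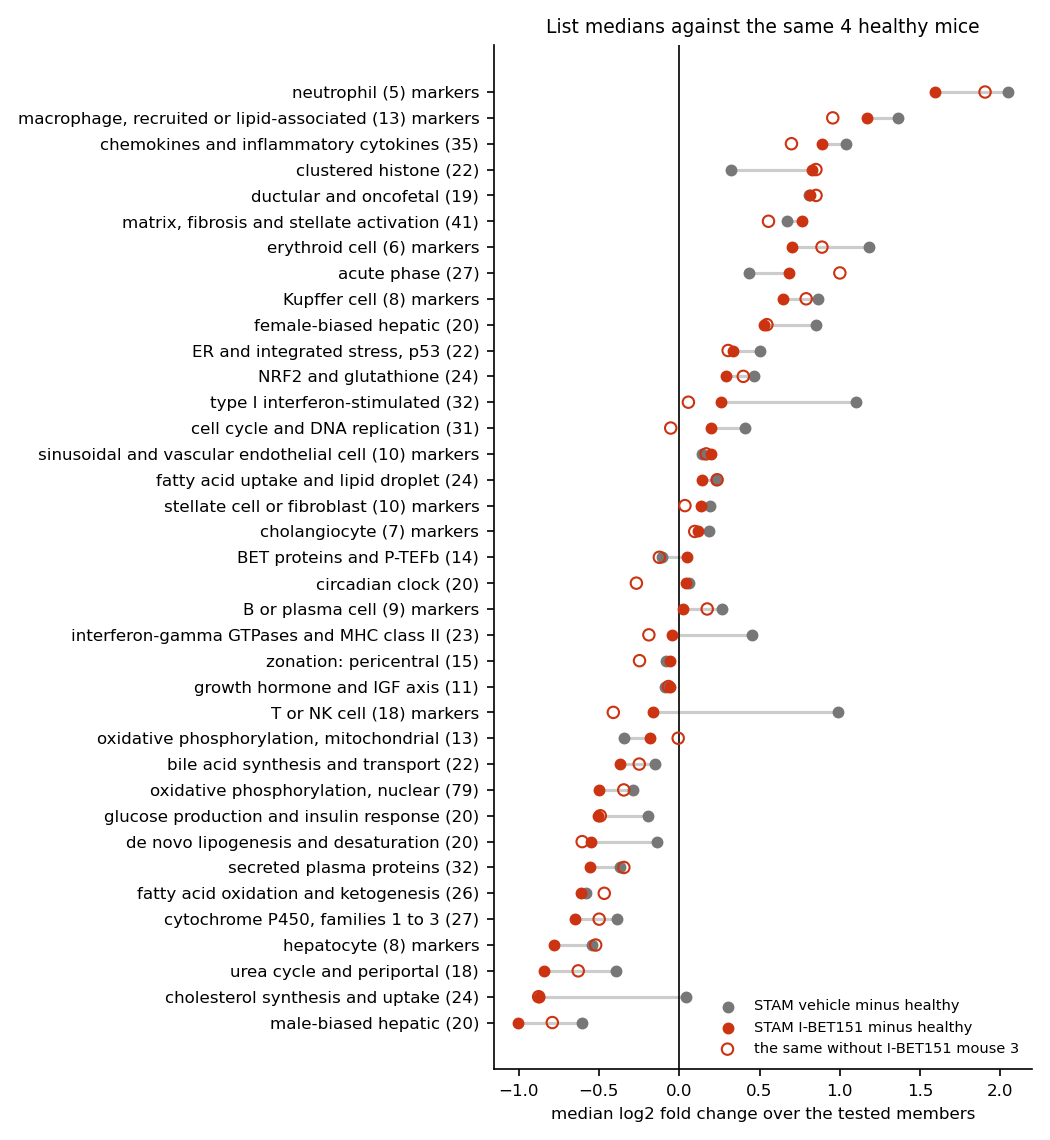
Median log2 fold change of each gene list for I-BET151 over healthy and, beside it, for vehicle over healthy, which share the 4 healthy mice. Cholesterol genes lie at -0.88 and 0.04, type I interferon genes at 0.26 and 1.1, and matrix genes at 0.76 and 0.67.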

How the data were processed

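RNA-seq of 12 mouse livers was analysed. Per the study's methods and labels, stranded TruSeq mRNA libraries were aligned to mm10 with STAR 2.5.1b, and the authors deposited 1 file of raw read counts per gene and mouse from uniquely mapped reads, so genes with near-identical copies are undercounted. The counter is named as HTSeq in the methods and as featureCounts in the labels. The annotation release was not given in the sources used here. Symbols and GRCm38 positions came from GENCODE (47310 of 47729 identifiers matched) and promoters from RefSeq.

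Counts were fitted with edgeR 4.0.16 (TMM, default filter at 10 counts, quasi-likelihood test, all 12 mice in 1 model of 3 groups), with Benjamini-Hochberg adjustment over all tested genes. CPM are TMM-normalised, errors of means are SD over 4 mice, and the standard error of a log2 fold change was taken from its F statistic. The labels do not give extraction or collection batches, only sequencing lanes. No replicate files were alike within sampling noise. The gene lists, marker lists and named genes were chosen with earlier results of these data known.

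Named genes were the 12 largest differences in each direction that passed with and without I-BET151 mouse 3, did not overlap between groups and averaged at least 1 CPM in the higher group, up to 4 members per list by p, the study's RT-qPCR genes, and 5 genes per interferon, cholesterol and histone list by p against vehicle. Genes named to complete a count, the families and their members, and the promoters printed were chosen after their values were seen. Some genes that the rule names are not reported here. Alternatives used DESeq2 1.42.0, limma 3.58.1 with voom weights, other filters and other subsets of mice. The edgeR script was tested on simulated data first.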

Additional observations from a re-analysis of the deposited data

Results flagged for a closer look

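In each group of 4 mice, a value was picked out when the gap from the highest or lowest mouse to its nearest neighbour, divided by the group's range, exceeded Dixon's 95% limit for 4 samples. Of 284 values tested 26 were picked out, or 9.15%, where chance gives about 5 in 100. Of these, 9 were in healthy and 17 in I-BET151 mice, and mouse 3 accounted for 8 of the 17.

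In I-BET151 mouse 3 the TMM factor was 1.61 against 0.944 to 1.04 in the other treated mice (ratio 0.855), and its 10 most counted genes took 7.95% of counts against 16.4% to 17.6% (0.876). Mouse 3 was also lowest for Cd36, with 80.0 against 248 to 278 CPM (0.851), for Clock, with 22.9 against 34.0 to 34.7 CPM (0.938), and for Serpinc1, with 619 against 1238 to 1310.0 CPM (0.895). It was highest for Oas2, with 32.4 against 5.27 to 9.67 CPM (0.838), for Arntl2, with 8.07 against 2.89 to 3.24 CPM (0.933), and for Nr1d1, with 126 against 84.0 to 86.3 CPM (0.945).

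Mouse 4 was highest for Saa2, with 1237 against 4.03 to 131 CPM (0.897), for Orm3, with 99.0 against 23.7 to 34.7 CPM (0.855), for Col4a2, with 103.8 against 76.9 to 78.7 CPM (0.931), and for Myc, with 27.6 against 16.5 to 18.2 CPM (0.841). It was lowest for Idi1, with 2.44 against 7.76 to 8.64 CPM (0.858). Mouse 2 was highest for Elovl3, with 32.6 against 13 to 15 CPM (0.898), and lowest for Psrc1, with 1.21 against 3.91 to 4.45 CPM (0.834), and for Serpini1, a secreted inhibitor of proteases that did not pass (log2 fold change 1.11, adjusted p = 0.18), with 0.301 against 0.556 to 0.597 CPM (0.859). Mouse 1 was highest for Vmn2r3, with 1.96 against 0.666 to 0.843 CPM (0.864).

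Among healthy mice, Rbm24 and Sprr2a2 each had a single count, in mouse 4 and mouse 3, and none in the other mice (ratio 1.0). Mouse 2 was highest for Cyp2b9, with 6.67 against 0.0581 to 0.447 CPM (0.941), for Socs2, with 28.0 against 3.65 to 7.21 CPM (0.854), for Slc7a11, with 0.424 against 0.172 to 0.213 CPM (0.84), and for Gbp3, with 9.06 against 4.57 to 4.74 CPM (0.963). Mouse 1 was lowest for Ghr, with 214 against 303 to 312 CPM (0.914), and highest for Loxl2, with 6.30 against 3.97 to 4.27 CPM (0.869). Mouse 3 was lowest for Gstp3, with 6.08 against 6.99 to 7.15 CPM (0.854).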

How the results depend on the processing

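None of the 2546 genes changed direction in any alternative that tested them, but their number did. Against 2546 genes (1662 higher, 884 lower), limma with voom weights gave 4880 (2683 and 2197), an adjusted p of 0.1 gave 4162 (2616 and 1546), and the 8 compared mice alone gave 1262 (933 and 329). Lane as a covariate gave 85 (67 and 18), and fewer degrees of freedom are left in that model. DESeq2 gave 1348 lower genes with all mice, and 4105 in all and 1868 lower without mouse 3. RLE scaling, no filter, 10 counts in every mouse, the 7 mice without mouse 3 or vehicle, and DESeq2 on 8 mice (an alternative chosen after seeing the data) stayed within 1.5 times. Leaving out 1 mouse gave 1292 to 3731 genes, 914 to 2378 higher and 375 to 1617 lower. The share of higher calls ran from 53.3% to 78.8%. The causes of these changes were not tested.

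Replicate numbers did not pair the mice: deviations of same-numbered healthy and I-BET151 mice correlated at -0.148, -0.0533, -0.351 and -0.0323. A replicate block gave 1573 genes (1065 higher and 508 lower), and no mouse correlated best with its own number.

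Of 3324 alternative values for 140 named genes 3026 kept their direction and side of the threshold, 238 lost the threshold, 46 gained it and 14, none past the threshold in the main comparison, changed sign. Mvd was 0.032 (10 counts in every mouse), 0.00343 (8 mice), 0.107 (lane), and -0.23 to 0.0877 when single mice were left out. With lane, mt-Nd4l was 0.0769, mt-Nd4 0.0688 and Tgfb1 -0.038. Gbp3 was -0.00821 (7 mice) and -0.0229 (DESeq2) without mouse 3, and -0.0284 to 0.492 when single mice were left out, and Isg15 was -0.0207 to 0.193 in the same fits. Medians of the pericentral, interferon-gamma, cell cycle, BET, clock and mitochondrial lists changed sign between settings. With 4 mice a group, small differences at weakly counted genes were not detectable.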

Other observations

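Phase II and transport families, some with members in the lists above, were looked at after their values were seen, so the counts are descriptions. The background over all genes was 9.88% higher and 5.25% lower. Of 18 tested UDP-glucuronosyltransferase genes (Ugt), which conjugate bilirubin, steroids and drugs, 8 were lower than in healthy mice, with and without I-BET151 mouse 3, at a median log2 fold change of -0.80 against -0.31 for vehicle over healthy. Several of these genes share exons, so their counts may not be separate. Of 8 organic anion carriers (Slco) 4 were lower, Slco1a1 and Slco1a4 of the bile acid list among them. Sulphotransferases (Sult), which conjugate steroids and phenols, went both ways, with 4 higher and 2 lower of 11. So did glutathione transferases (Gst, 2 higher and 4 lower of 21) and Slc22 carriers (2 and 3 of 19). Carboxylesterases (Ces) had 2 higher and 5 lower of 16, and aldehyde dehydrogenases (Aldh) 3 and 3 of 19. Sult2a7 averaged 1.51 ± 0.681 CPM in healthy, 9.41 ± 1.12 in vehicle-dosed and 23.5 ± 6.16 in I-BET151 mice (log2 fold change 3.96, adjusted p = 6.43e-06), Sult1e1, which inactivates oestrogens, averaged 0.591 ± 0.166, 4.9 ± 3.27 and 7.49 ± 9.12 CPM (log2 fold change 3.66, adjusted p = 0.0188), and Sult1a1, which acts on phenols, was lower (log2 fold change -0.84, adjusted p = 0.0144).

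All 3 tested small proline-rich genes (Sprr), a multi-copy family of the cornified envelope, were higher than in healthy mice (background 9.88%). Over the healthy mice Sprr1a and Sprr2a1 had 0 counts and Sprr2a2 had 1. They reached the count filter only through the STAM groups, so a lower call was not possible and the count carries no weight. Of 9 keratin genes 3 were higher, Krt7, Krt23 and Krt222. Most of these genes stood at low levels, and vehicle-dosed mice had values of similar size.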
